A study of Chlamydomonas reinhardtii with 12 samples.

Results

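Photosystem I is the membrane complex that uses light to move electrons from plastocyanin or cytochrome *c*6, on the lumenal side of the thylakoid, to ferredoxin in the stroma. Its reaction centre is built from subunits encoded in the plastid genome, and nuclear genes supply further core subunits that are imported into the chloroplast. The transcripts of 9 of these nuclear genes of the green alga *Chlamydomonas reinhardtii* are described here, of 17741 genes in the count table. They were picked by name and locus: *PSAD*, *PSAE*, *PSAF*, *PSAG*, *PSAH*, *PSAK*, *PSAL*, *PSAN* and *PSAO*. All 9 passed the filter on low counts, which kept 14251 genes whose counts, scaled to a common library size as CPM, exceeded 1 in at least 4 libraries.

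Strand-specific mRNA libraries were sequenced from strain CC-125 as the wild type (WT) and from *phot*, a mutant with a disruption of *PHOT1*, the gene of the blue-light photoreceptor phototropin. Light is given in µmol photons per square metre per second. Cells grown with acetate at 23 °C were moved to acetate-free high salt medium and acclimated at a light of 5 (LL). They were sampled there or after a further 60 min at a light of 300 (HL). The growth light before the move is 15 in the study's general culture methods and 5 in its RNA sequencing methods. The acetate-free medium was common to the 4 groups of 3 libraries: WT LL, *phot* LL, WT HL and *phot* HL. The mutant is 1 line with no complemented line among these 12 libraries, so the loss of *PHOT1* and any other difference between the strains cannot be told apart. The study calls its replicates biological. The labels do not say whether the 3 libraries of a group came from separate cultures, so p-values measure only the spread between libraries, which are called A, B and C in the order of the table.

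Total counts lay between 27136674 and 33906264 per library. *PHOT1* (Cre03.g199000) had 6074 to 8263 counts in the WT libraries and 115 to 181 in the *phot* libraries, as labelled. Levels are CPM with TMM scaling (trimmed mean of M-values), a factor for each library that offsets differences in RNA composition. These factors were 0.66 to 0.863 for WT LL, 0.885 to 1.002 for WT HL, 1.094 to 1.206 for *phot* LL and 1.129 to 1.234 for *phot* HL, so the genotypes differed in scaling. The 20 genes with the most counts took 20.77% to 23.91% of a WT LL library, 17.04% to 19.23% of a *phot* LL library and 14.21% to 15.42% of an HL library. Counts give shares of a library, so a smaller amount of a transcript per cell and a larger amount of other RNA cannot be told apart.

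As a plain share of each library, which needs no scaling, photosystem I transcripts were lower in HL than in LL in WT and not in *phot*. The summed counts of the 9 genes were 0.747%, 0.776% and 0.681% of the library in WT LL A, B and C, and 0.292%, 0.307% and 0.304% in WT HL. In *phot* they were 1.29%, 1.27% and 1.16% in LL, and 1.38%, 1.49% and 1.45% in HL. The 4 groups did not overlap: every *phot* library lay above every WT library, and every WT HL library lay below every WT LL library.

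**Figure D1:**
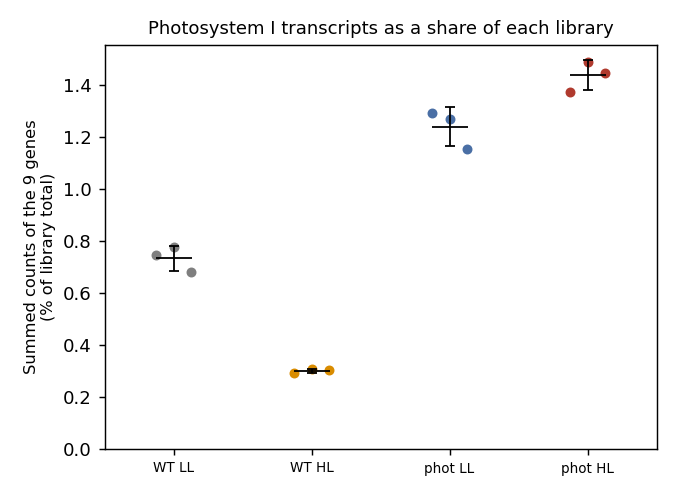
Summed counts of the 9 photosystem I genes as a percent of the library total (y axis) in each group (x axis). Points are libraries, long bars the mean and whiskers ± SD of 3 libraries. The WT HL libraries sit near 0.30% and the *phot* HL libraries between 1.38% and 1.49%.

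The genes lie on separate loci, with 2 on chromosome 7 and 2 on chromosome 12. In the RefSeq annotation of assembly Chlamydomonas_reinhardtii_v5.5, *PSAD* (Cre05.g238332) spans chromosome 5, 2978242 to 2979235, and *PSAE* (Cre10.g420350) chromosome 10, 332041 to 332993. *PSAF* (Cre09.g412100) spans chromosome 9, 7163422 to 7165425, and *PSAN* (Cre02.g082500) chromosome 2, 1241637 to 1244122. The pair on chromosome 12 is *PSAG* (Cre12.g560950), 6881158 to 6883069, and *PSAL* (Cre12.g486300), 1620271 to 1622341. The pair on chromosome 7 is *PSAH* (Cre07.g330250), 2613753 to 2615562, and *PSAO* (Cre07.g334550), 3298723 to 3300553. *PSAK* (Cre17.g724300) spans chromosome 17, 3419254 to 3421201. None of the 9 overlaps another annotated gene, and exons and strands were not analysed here. The authors aligned to version 5 of the assembly, and the coordinates of that version were not compared with these. Transcript lengths were not used, so a gene is compared with itself across groups and no order of levels between genes is given.

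*PSAD* and *PSAE* encode the subunits on the stromal face where ferredoxin docks, and the *PSAD* promoter is widely used to drive transgenes in this alga. *PSAD* stood at 755, 919 and 893 TMM-scaled CPM in WT LL A, B and C, and at 462, 411 and 423 in WT HL. In *phot* it stood at 1572, 1530 and 1369 in LL, and at 1543, 1593 and 1632 in HL. WT HL was thus the low group, and the LL and HL libraries of *phot* overlapped. *PSAE* had 408, 469 and 500 TMM-scaled CPM in WT LL against 256, 236 and 248 in WT HL. Its *phot* levels were 907, 948 and 770 in LL, and 1198, 1220 and 1281 in HL. The 4 groups of *PSAE* did not overlap, and the mutant in HL was the highest.

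*PSAF* and *PSAN* encode subunits of the lumenal side. PSAF forms the docking site for plastocyanin and cytochrome *c*6, and PSAN is known in *Arabidopsis* to help electron transfer from plastocyanin. *PSAF* stood at 1464, 1709 and 1720 TMM-scaled CPM in WT LL and at 669, 585 and 598 in WT HL. In *phot* it stood at 2206, 2244 and 2095 in LL, and at 1931, 1953 and 2015 in HL. *PSAF* was the 1 gene of the 9 whose *phot* HL libraries all lay below its *phot* LL libraries, as for 34.1% of all tested genes. *PSAN* had another order, with 1985, 1673 and 2189 in WT LL and 444, 422 and 463 in WT HL. Its *phot* levels were 893, 1126 and 784 in LL, and 1345, 1325 and 1436 in HL. Here WT LL was the highest group and *phot* LL lay below it in every library, while in HL every *phot* library lay above every WT library.

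*PSAG* and *PSAK* encode related membrane subunits at the edge of the core where antenna proteins attach. *PSAG* had the same order of groups as *PSAE*, at 485, 545 and 587 TMM-scaled CPM in WT LL, and 215, 197 and 208 in WT HL. In *phot* it stood at 806, 833 and 700 in LL, and at 971, 1011 and 1023 in HL. *PSAK*, although related to *PSAG*, had the order of *PSAN* by group means. It stood at 2491, 2075 and 2909 in WT LL, and at 597, 608 and 652 in WT HL. Its *phot* levels were 1563, 2079 and 1473 in LL, and 1886, 1874 and 2278 in HL. *phot* LL B lay just above WT LL B, so these groups overlapped for *PSAK*, and the LL and HL libraries of *phot* overlapped as well. WT LL B also lay below *phot* HL C, so WT LL was the highest group of *PSAK* by its mean only.

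*PSAH*, *PSAL* and *PSAO* encode the subunits on the side where light-harvesting complex II docks during state transitions, the exchange of antenna between the photosystems. *PSAH* stood at 630, 652 and 614 TMM-scaled CPM in WT LL and 296, 259 and 294 in WT HL, against 989, 1102 and 908 in *phot* LL, and 1154, 1152 and 1214 in *phot* HL. *PSAL* stood at 426, 511 and 444 in WT LL and 232, 217 and 224 in WT HL, against 1019, 968 and 910 in *phot* LL, and 1005, 1081 and 1091 in *phot* HL. *PSAO* stood at 393, 444 and 484 in WT LL and 136, 138 and 129 in WT HL, against 794, 796 and 668 in *phot* LL, and 834, 886 and 878 in *phot* HL. All 3 genes had the same order of groups, with WT HL lowest and *phot* HL highest, and *PSAL* overlapped between the light conditions in *phot*.

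**Figure D2:**
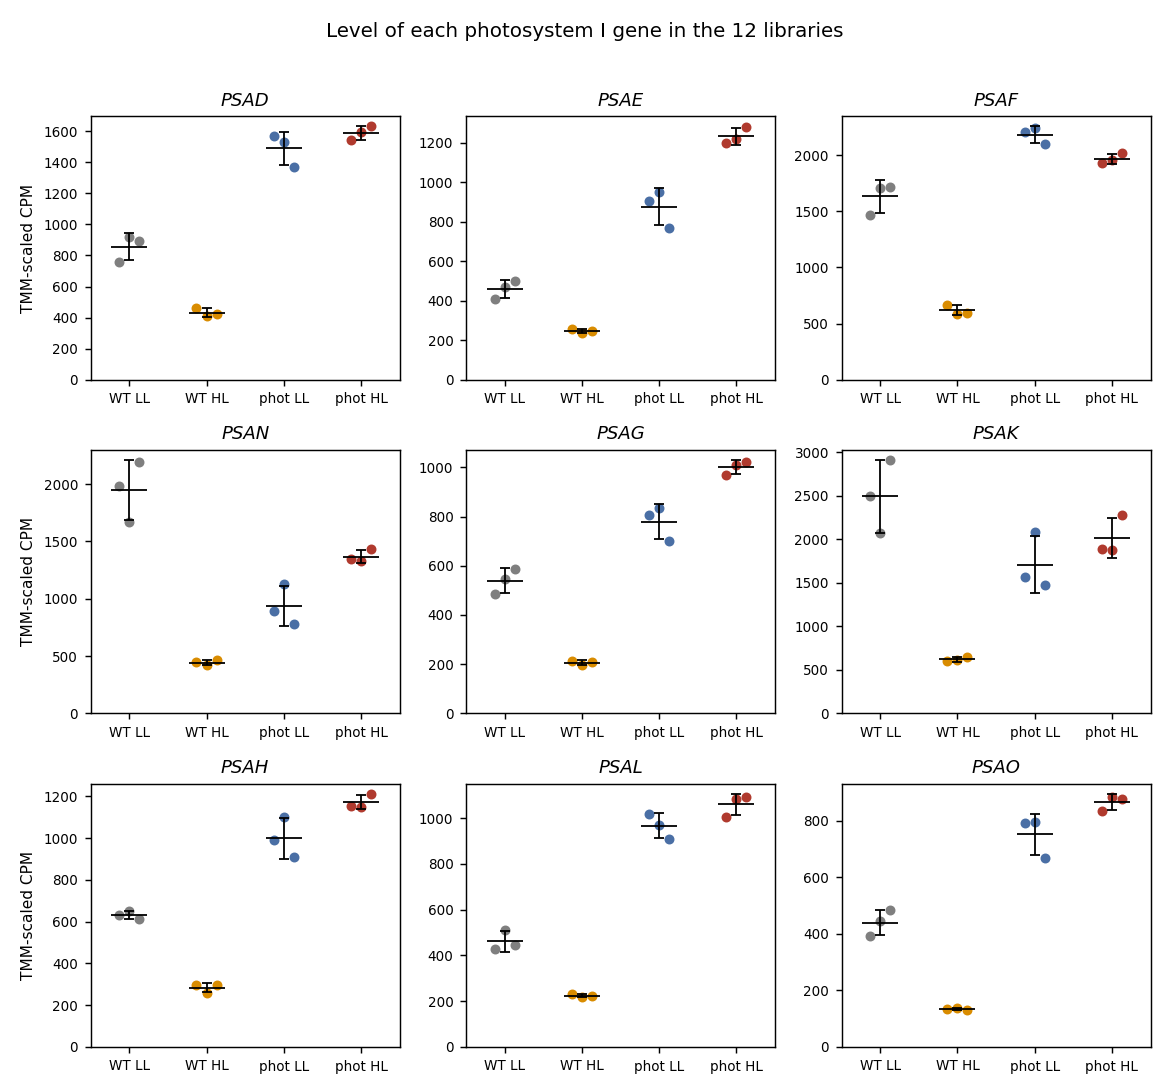
TMM-scaled CPM (y axis, from 0, scaled per gene) of each photosystem I gene in the 4 groups (x axis). Points are libraries A, B and C from left to right, long bars the mean and whiskers ± SD of 3 libraries. WT HL is the lowest group in all 9 panels. WT LL has the highest mean in the panels of *PSAN* and *PSAK*, with overlapping libraries for *PSAK*.

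The first question was how the genes respond to HL in WT. All 9 fell. The declines ran from 1.86-fold for *PSAE* to 4.40-fold for *PSAN*, and the largest after *PSAN* were 4.03-fold for *PSAK* and 3.28-fold for *PSAO*. In the edgeR quasi-likelihood fit, with p adjusted by Benjamini-Hochberg, *PSAN* fell by 2.14 ± 0.15 on the log2 scale (SE; adjusted p = 7.9e-09), *PSAK* fell by 2.01 ± 0.16 (adjusted p = 4.4e-08) and *PSAO* fell by 1.71 ± 0.11 (adjusted p = 5.9e-09). *PSAF* fell by 1.40 ± 0.11, *PSAG* fell by 1.39 ± 0.11 and *PSAH* fell by 1.16 ± 0.11. The smallest estimates were those of *PSAL* and the ferredoxin-side genes: *PSAL* fell by 1.04 ± 0.11, *PSAD* fell by 0.99 ± 0.11 and *PSAE* fell by 0.90 ± 0.12, the last with the highest adjusted p of the 9, 5.9e-06. Among all tested genes, 35.1% were called lower in this comparison. The WT LL and WT HL libraries did not overlap for any of the 9, and 34.4% of all genes were lower without overlap. The median log2 change was -1.39 over the 9 genes and 0.05 over all tested genes.

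The same question in *phot* gave small changes. *PSAN* rose by 0.55 ± 0.14 on the log2 scale (edgeR with Benjamini-Hochberg adjustment, adjusted p = 0.0040), *PSAE* rose by 0.49 ± 0.11 (adjusted p = 0.0019) and *PSAG* rose by 0.36 ± 0.11 (adjusted p = 0.011). These 3 of 9 are to be read against 31.2% of all genes called higher. The other 6 did not pass the test. Their differences and 95% intervals were 0.23 (0 to 0.46) for *PSAH*, 0.24 (-0.10 to 0.58) for *PSAK*, 0.20 (-0.04 to 0.44) for *PSAO*, 0.13 (-0.09 to 0.36) for *PSAL*, 0.09 (-0.15 to 0.34) for *PSAD* and -0.15 (-0.39 to 0.09) for *PSAF*. For 5 genes (*PSAE*, *PSAG*, *PSAH*, *PSAN* and *PSAO*) every HL library lay above every LL library, as for 38.5% of all genes. The count rose to 5 without *phot* LL B, where *PSAH* (adjusted p = 0.044) and *PSAK* (adjusted p = 0.045) also passed by edgeR, and dropped to 2 without *phot* LL C or *phot* HL C, where *PSAG* was lost (adjusted p = 0.098 and 0.059).

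**Figure D3:**
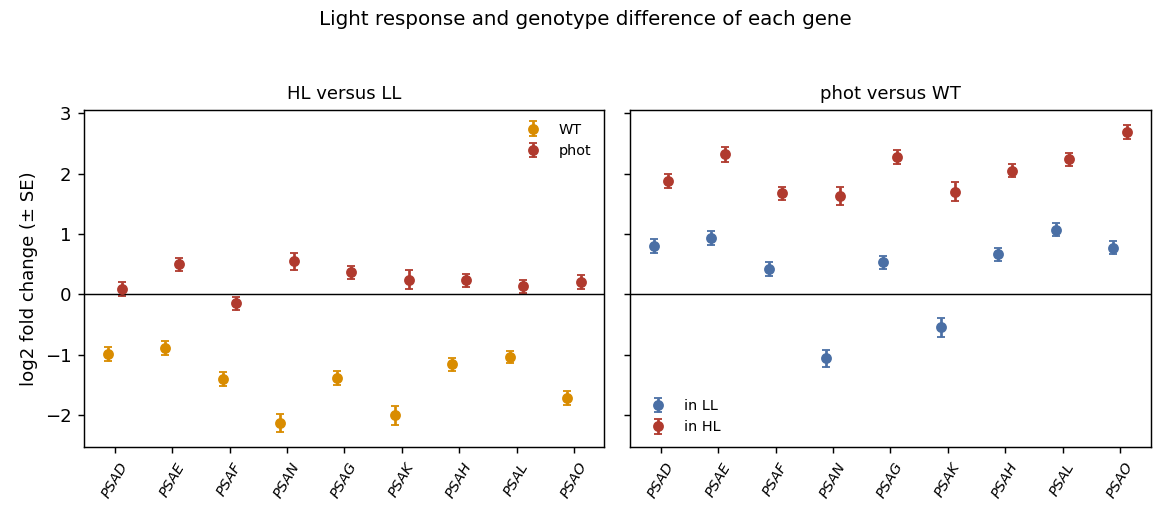
log2 fold change (y axis) of each gene (x axis) for HL versus LL in WT and in *phot* (left) and for *phot* versus WT in LL and in HL (right). Points are edgeR estimates and whiskers ± SE, from 3 libraries per group. The WT light responses lie between -2.14 and -0.90 and the *phot* responses between -0.15 and 0.55, and in LL *PSAN* and *PSAK* alone lie below 0.

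In HL, every gene was higher in *phot* than in WT. The differences ran from 3.09-fold for *PSAN* to 6.45-fold for *PSAO*. On the log2 scale *PSAO* was higher by 2.69 ± 0.12, *PSAE* by 2.32 ± 0.12, *PSAG* by 2.28 ± 0.11, *PSAL* by 2.24 ± 0.11 and *PSAH* by 2.05 ± 0.11. The smaller differences were 1.88 ± 0.12 for *PSAD*, 1.70 ± 0.16 for *PSAK*, 1.67 ± 0.11 for *PSAF* and 1.63 ± 0.14 for *PSAN*. Adjusted p by edgeR ran from 1.1e-10 for *PSAO* to 2.8e-07 for *PSAK*, and 38.1% of all genes were called higher. No WT HL library overlapped a *phot* HL library for any of the 9, against 39.6% of all genes that were higher without overlap. The median was 2.05 over the 9 genes and 0.05 over all tested genes.

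In LL the genotypes differed in both directions. Higher in *phot* were 7 genes, led by *PSAL* at 1.07 ± 0.11 on the log2 scale (edgeR, adjusted p = 5.8e-07), *PSAE* at 0.93 ± 0.12 and *PSAD* at 0.80 ± 0.11, followed by *PSAO* at 0.77 ± 0.11, *PSAH* at 0.66 ± 0.11, *PSAG* at 0.53 ± 0.11 and *PSAF* at 0.42 ± 0.11 (adjusted p = 0.0036). The other 2 were lower, *PSAN* by -1.06 ± 0.14 (adjusted p = 1.1e-05) and *PSAK* by -0.55 ± 0.16 (adjusted p = 0.0062). Of all genes, 44.3% were called higher and 28.0% lower. The same 7 were higher without overlap between libraries, as were 48.6% of all genes. *PSAN* was lower without overlap, and *PSAK* overlapped. The call of *PSAF* was lost in 7 of 12 fits that left out 1 library (*phot* LL A or C, WT HL A or B, or any of the 3 *phot* HL libraries), in which its value went down to 0.23 and its adjusted p up to 0.15.

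This comparison also moves with the scaling. The median of all genes was 0.22 with TMM factors and 0.79 with library totals, and 61.2% against 81.4% of the genes called were higher. With library totals *PSAK* stood at 0.04 (edgeR, adjusted p = 0.759) and *PSAN* at -0.48. Subtracting the median of all genes takes out most of a change in factors by construction. Values relative to that median are therefore no check on the scaling. Over 4 scalings *PSAK* lay at -0.77 to -0.76 from that median and *PSAN* at -1.28 to -1.27. *PSAF* lay at 0.20 in all 4, and the 6 others between 0.31 for *PSAG* and 0.85 for *PSAL*.

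Whether the light response differs between the genotypes is given by the interaction, the response in *phot* minus that in WT. It was positive for all 9 genes, against 23.5% of all genes called higher. *PSAN* had the largest difference of the 9, 2.69 ± 0.20 on the log2 scale (edgeR, adjusted p = 2.1e-07), then *PSAK* with 2.25 ± 0.23 and *PSAO* with 1.92 ± 0.16. *PSAG* followed with 1.75 ± 0.16, *PSAE* and *PSAH* with 1.39 ± 0.16 and 1.39 ± 0.15, *PSAF* with 1.25 ± 0.16 and *PSAL* with 1.17 ± 0.15. *PSAD* had the smallest, 1.08 ± 0.16 (adjusted p = 7.6e-05). The median was 1.39 over the 9 genes and -0.09 over all tested genes. These 5 comparisons share libraries and are not independent of each other.

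The makeup of the set within a library, which no scaling factor touches, differed between the groups. *PSAN* supplied 18.6% to 22.0% of the summed counts of the 9 genes in WT LL and 13.4% to 14.3% in WT HL, against 8.10% to 9.68% in *phot* LL and 10.96% to 11.33% in *phot* HL. *PSAK* supplied 23.1% to 28.1% in WT LL and 18.1% to 20.1% in WT HL, against 14.5% to 17.9% in *phot* LL and 15.5% to 17.7% in *phot* HL. Both genes thus took their largest share in WT LL, with no overlap with another group. *PSAD*, *PSAE*, *PSAG*, *PSAH* and *PSAL* took their smallest shares there, with no overlap with another group. For *PSAL* the share was 4.30% to 5.68% in WT LL and 6.92% to 7.06% in WT HL. It was 8.33% to 9.48% in *phot* LL and 8.47% to 8.94% in *phot* HL. Shares of the summed counts depend on each other, so the large shares of *PSAN* and *PSAK* in WT LL lower those of the other genes. For *PSAE*, *PSAG*, *PSAH*, *PSAL* and *PSAO*, every *phot* library held a larger share than every WT library. The shares of *PSAO* were 4.35% to 4.94% in WT LL and 3.99% to 4.49% in WT HL. They were 6.84% to 7.39% in *phot* LL and 6.84% to 7.32% in *phot* HL.

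Set against the geometric mean of the other 8 genes in the same library, *PSAN* had a log2 ratio of 1.36 ± 0.21 (SD, n = 3) in WT LL, -0.29 ± 0.16 in *phot* LL, 0.55 ± 0.06 in WT HL and 0.07 ± 0.03 in *phot* HL. *PSAK* had 1.75 ± 0.24, 0.68 ± 0.18, 1.09 ± 0.10 and 0.69 ± 0.13 in the same order. The mutant was lower than WT for both, by more in LL (-1.65 for *PSAN* and -1.07 for *PSAK*) than in HL (-0.48 and -0.40), and no libraries of the genotypes overlapped in either light. *PSAE*, *PSAG*, *PSAL* and *PSAO* went the other way, with *phot* above WT in LL and in HL and no overlap between libraries. Their ratios were higher in *phot* by 0.60, 0.15, 0.76 and 0.42 in LL, in this order. In HL they were higher by 0.30, 0.26, 0.21 and 0.72. *PSAF* kept its ratio in WT LL, WT HL and *phot* LL, at 1.07, 1.08 and 1.10 with overlapping libraries, and stood at 0.66 in *phot* HL. *PSAH* stood at -0.46 in WT LL, and at -0.18, -0.17 and -0.18 in WT HL, *phot* LL and *phot* HL. The mean of the other 8 holds *PSAN* and *PSAK* for each remaining gene, so changes of these 2 enter its ratio. In LL, *phot* was lower than WT by edgeR for *PSAN* (-1.06) and *PSAK* (-0.55), which raises the *phot* LL ratios of the remaining genes. The edgeR values in LL were 0.77 for *PSAO*, 0.42 for *PSAF* and 0.66 for *PSAH*. They were 0.93 for *PSAE*, 0.53 for *PSAG* and 1.07 for *PSAL*. These ratios are descriptions with no test. *PSAN* and *PSAK* were singled out after their values were seen.

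**Figure D4:**
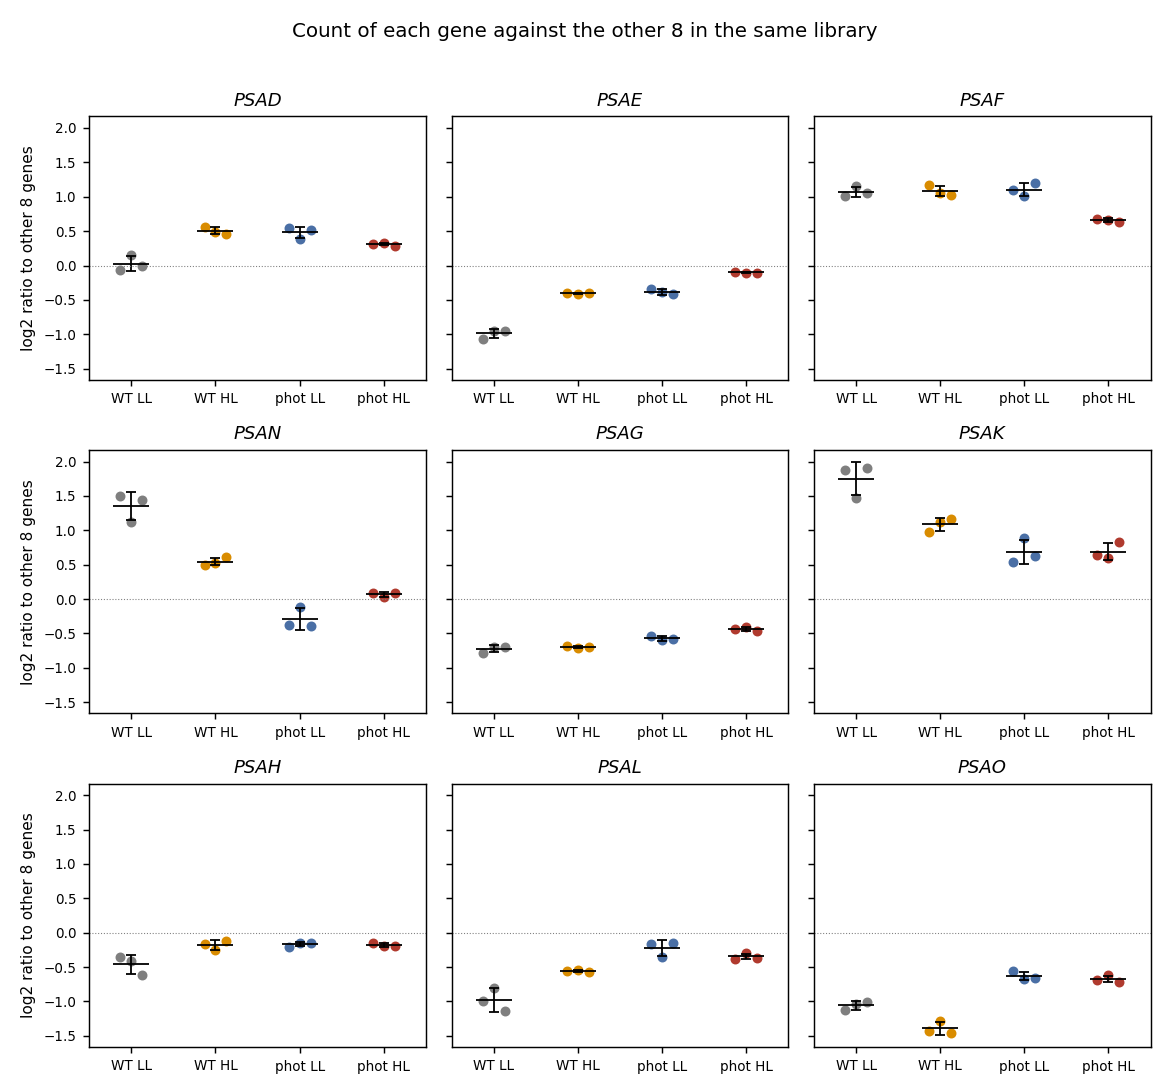
log2 ratio (y axis) of each gene's count to the geometric mean of the other 8 in the same library, by group (x axis). Points are libraries A, B and C from left to right, long bars the mean and whiskers ± SD of 3 libraries, and the dotted line marks equal counts. *PSAN* and *PSAK* are highest in WT LL, while *PSAG*, *PSAL* and *PSAO* are higher in every *phot* library than in every WT library.

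The pair also differed from the other genes between libraries of one group. In TMM-scaled CPM, WT LL B was the lowest library of its group for *PSAN* and *PSAK* and for none of the other 7 genes. By the same measure *phot* LL C was the lowest of its group for all 9. This order depended on the scaling. As CPM of library totals, *phot* LL B was lowest for *PSAF* and *PSAL*, and for *PSAN* WT LL B (1442.82) and WT LL C (1442.76) were nearly equal. Over the 12 libraries the log2 CPM of *PSAN* and *PSAK* had a Pearson r of 0.97. *PSAN* had an r of 0.55 to 0.75 with the 7 other genes and *PSAK* of 0.68 to 0.87. The 7 other genes had an r of 0.89 to 0.996 with each other. These values are descriptions, since the 12 libraries fall in 4 groups and share their scaling.

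Among the electron carriers that photosystem I works with, *FDX1* and *CYC6* were followed. *FDX1* (Cre14.g626700), a gene of the ferredoxin on the acceptor side, had 7458, 8955 and 11280 TMM-scaled CPM in WT LL and 4641, 4410 and 4540 in WT HL, against 4731, 5130 and 4878 in *phot* LL and 3088, 3145 and 3494 in *phot* HL. It fell in HL in both genotypes, by 1.03 ± 0.15 on the log2 scale in WT and by 0.60 ± 0.15 in *phot* (edgeR, adjusted p = 1.9e-05 and 0.0030). The difference between these responses, 0.43 ± 0.21, did not pass the test (edgeR, adjusted p = 0.099), with a 95% interval of -0.02 to 0.87. This interval overlaps those of *PSAD* (0.73 to 1.42) and *PSAL* (0.85 to 1.49), and *FDX1* was not tested against the 9 genes. Unlike the 9 genes in HL, *FDX1* was lower in *phot* than in WT in both lights, without overlap between libraries. The log2 differences were -0.91 ± 0.15 in LL and -0.48 ± 0.15 in HL (edgeR, adjusted p = 7.0e-05 and 0.0087). *CYC6* (Cre16.g651050) encodes cytochrome *c*6, the donor that can replace plastocyanin. It had 4, 6 and 3 counts in WT LL and 2, 0 and 2 in *phot* LL. In HL it had 1091, 946 and 1181 counts in WT and 2737, 3344 and 3582 in *phot*. Transcripts of the alternative donor thus had at most 6 counts per library in LL and at least 946 in HL in both genotypes, and were higher in *phot* HL than in WT HL by 1.26 ± 0.17 on the log2 scale (edgeR, adjusted p = 1.2e-05).

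A list of 12 photosystem II antenna genes served for comparison. In WT, 11 of 12 fell in HL and 1 rose, *LHCB7*, with a median log2 change of -2.89, where 35.1% of all genes were called lower. In *phot*, 3 rose, 3 fell and 6 did not pass the test, with a median of -0.09, and these counts are near the 31.2% of all genes called higher and 27.7% called lower. The median for *phot* versus WT was 1.77 in LL, where all 12 were higher, and 5.52 in HL, where 11 were higher and *LHCB7* lower, against 44.3% and 38.1% of all genes called higher. The medians of the 9 photosystem I genes were 0.66 in LL and 2.05 in HL. The difference between the sets was not tested.

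Among 9102 other genes with a mean of at least 3 log2 CPM, the 5 whose levels were most like the mean standardised profile of the 9 genes had a Pearson r of 0.994 to 0.998 over the 12 libraries. The closest was Cre06.g283050 (r = 0.998), at 958 ± 38.0 TMM-scaled CPM in WT LL and 84.3 ± 7.78 in WT HL, against 1870 ± 242 in *phot* LL and 2398 ± 53.8 in *phot* HL (SD, n = 3). Next was Cre10.g425900 (r = 0.996), at 434 ± 10.8, 20.9 ± 3.15, 965 ± 117 and 1210 ± 24.7 in the same order. All 5 had WT HL as the lowest group and *phot* HL as the highest. This order follows from their selection by correlation over the same 12 libraries and is no separate result.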

How the data were processed

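The authors aligned reads with STAR (2.5.3a in their processing notes) to Phytozome assembly version 5, and HTSeq-count gave reverse-strand reads for each gene. The deposited values are raw counts per gene without pooling. Columns named the group but not the replicate. Within-group pairs differed beyond sampling noise (chi-square per degree of freedom 7.69 to 67.66), so they were not splits of 1 library. Each library counted as 1 replicate, although this check cannot tell separate cultures from separate libraries of 1 culture. Genes with over 1 CPM in at least 4 libraries were tested, a filter taken from the study's methods. The study kept only genes called by limma, DESeq2 and edgeR alike, a stricter rule than the single test used here. That test was run with edgeR 4.0.16 (limma 3.58.1, R 4.3.3): TMM factors, 1 coefficient per group over 12 libraries, quasi-likelihood test, Benjamini-Hochberg adjustment over 14251 genes, threshold 0.05. CPM by TMM are mean ± SD (n = 3). The SE of a log2 change is its absolute value divided by the square root of the quasi-likelihood F statistic. Intervals cover 95% and were built from this SE with the t distribution. Log2 values for correlations used a prior count of 2. The named genes were the 9 members, *PHOT1*, the 2 carriers, the antenna list and the 5 genes most correlated with the members. Of 17741 identifiers, 17738 matched RefSeq, which gave positions only. Members and lists were chosen with earlier results of these data known. Alternatives were other scalings, DESeq2 1.42.0, limma-voom (also with group weights), no filter, only the groups compared, and leaving out each library. Levels per length, promoters and protein sequences were not analysed here. Carriers and photosystem I antenna genes that the annotation used here does not name were not followed as lists. The 5 genes most correlated with the members were all loci planned for that antenna list, and are given by identifier only.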

Additional observations from a re-analysis of the deposited data

Results flagged for a closer look

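The light response differed between the genotypes for each of the 9 photosystem I genes by edgeR's test of the interaction and is listed for that reason. As the response in *phot* minus that in WT on the log2 scale, the stromal-side genes had 1.08 (*PSAD*) and 1.39 (*PSAE*), and the lumenal-side genes 1.25 (*PSAF*) and 2.69 (*PSAN*). The antenna-side genes had 1.75 (*PSAG*) and 2.25 (*PSAK*). The genes of the state transition side had 1.39 (*PSAH*), 1.17 (*PSAL*) and 1.92 (*PSAO*). Relative to the median of all genes, the values lay between 1.17 for *PSAD* and 2.79 for *PSAN* under 4 scalings. Subtracting that median takes out most of a change in factors by construction. Groups of 3 libraries are too small for the check on single outlying libraries.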

How the results depend on the processing

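Over 936 values of the 9 genes under alternatives, 916 kept their direction and side of the threshold, 13 lost the call, 4 gained it and 3 turned direction. Calls in WT HL versus LL, *phot* versus WT in HL and the interaction were kept under every other scaling, filter, tool and left-out library. In the test for changes beyond 1 on the log2 scale, some calls in WT HL versus LL and the interaction were lost. Those of *phot* versus WT in HL were all kept. In *phot* HL versus LL, leaving out 1 library gave 2 to 5 calls, the 5 without *phot* LL B. *PSAD* there turned to -0.022 with upper-quartile factors, and ran from 0 to 0.111 when 1 library was left out. With those factors *PSAG* lost its call (0.25, edgeR adjusted p = 0.059) and *PSAF* gained one (-0.27, adjusted p = 0.042). In *phot* versus WT in LL, *PSAK* turned to 0.037 with library totals, and *PSAF* lost its call with median-of-ratios factors (0.26), in a fit of only the groups compared (0.25) and with TMM factors computed without the members and antenna genes (0.24), the last an alternative added after seeing the data. Also added then was a test for changes beyond 1 on the log2 scale, which left 5 calls for WT HL versus LL (*PSAF*, *PSAG*, *PSAK*, *PSAN* and *PSAO*), 0 for *phot* HL versus LL, 0 for *phot* versus WT in LL, 9 in HL and 6 for the interaction, where 28.7%, 10.6%, 20.3%, 24.9% and 12.2% of all genes passed in either direction. The further addition of limma-voom with group weights gave 4 calls for *phot* HL versus LL, with *PSAH* gained (0.23, adjusted p = 0.029). The share of called genes that were higher was, with library totals, 65% against 52.6% for WT HL versus LL (41.4% with upper-quartile factors), 67.4% against 51.9% for *phot* versus WT in HL, and 28.8% against 45.3% for the interaction. With TMM factors computed without the members and antenna genes it was 56.5% for the interaction and 50.7%, against 61.2%, for *phot* versus WT in LL. Of the 5 genes most like the members, 3 stayed with Spearman's rho and 2 with library totals. No paired analysis was possible because the columns carry no replicate number. The alternative of coding length was not run, since no length was used.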
